A study of Mus musculus with 15 samples.

Results

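The interferon-induced genes are 40 listed mouse genes that cells switch on after an interferon signal, taken by gene name from the deposited count table. Of the 40, 39 were found under the listed name among 57010 genes, and all 39 passed the filter on low counts. The remaining one, Ddx58, stood in the table under the name Rigi with the same gene identifier, so it was left out of every count of levels and tests and enters only the promoter counts. RNA labelled as lung tissue of C57BL/J mice was sequenced in 15 libraries. 4 groups were compared: silica suspension given as nasal drops with DMSO solution the next day (silica_DMSO), silica, DMSO solution, and physiological saline as the control, all collected at day 30. The labels give no dose, age or sex, and do not say whether each library came from a separate mouse, so p-values measure the spread between libraries, which may be technical. The tissue field reads lung, while the extraction text speaks of retinas.

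The marker genes set 3 libraries apart from their label. Summed thymocyte markers (8 genes, among them the recombination genes Rag1 and Rag2) lay between 5927 and 7297 CPM (counts scaled to the library total) in silica_DMSO 4, silica_DMSO 6 and DMSO 7, against 14.5 to 42.7 CPM in the other 12. Summed alveolar type 2 markers (7 surfactant and related genes) lay between 185 and 7602 CPM in those 3, against 23730 to 49700 CPM in the other 12. The 12 lung libraries, 2 of silica_DMSO, 3 of silica, 3 of DMSO and 4 of control, enter every comparison. The 3 libraries with thymus RNA were kept apart, except in an alternative fit of all 15 libraries. Totals ran from 17434653 to 20829923 counts per library. The lung libraries also differed in how long their counted genes were: in 5 of them (silica_DMSO 5, silica 7, DMSO 1, DMSO 4 and control 1) under 30% of counts fell in genes over 3000 bases, with 11.5% in silica_DMSO 5 and 12.4% in DMSO 4, while the other 7 had 34.0% to 44.9%. They are called the short and the long length class, and each group holds both.

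Interferons are secreted proteins that put cells into an antiviral state. Type I interferons (the alpha and beta proteins) signal through Ifnar1 and Ifnar2 to a complex that holds Stat2 and Irf9 and binds the interferon-stimulated response element (ISRE) in target promoters. Type II interferon (interferon gamma, from T and NK cells) signals through Ifngr1 and Ifngr2, and many of its target promoters hold the gamma-activated site (GAS). Many genes answer to both, so the grouping into type I targets (Mx, Ifit and Oas genes, 10 in number) and type II targets (Gbp genes, Irgm1 and Iigp1, 7 in number) is a convention, not a measurement of which interferon acted.

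The promoters of 6 genes are shown because their levels carry much of the comparison by library: Isg15, Oas1a and Ifit1, and the GTPase genes Irgm1, Gbp2 and Igtp. Each is the 250 bases upstream of the gene's start from RefSeq (GRCm38.p6), read 5′ to 3′ on the gene's strand, with matches to an ISRE (GAAANNGAAA) or a GAS (TTCNNNGAA) on either strand in capitals.
Isg15: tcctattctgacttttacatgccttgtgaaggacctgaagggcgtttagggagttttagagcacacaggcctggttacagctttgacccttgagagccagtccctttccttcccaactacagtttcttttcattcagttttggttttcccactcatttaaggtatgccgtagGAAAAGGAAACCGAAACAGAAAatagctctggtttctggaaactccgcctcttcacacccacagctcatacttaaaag
Oas1a: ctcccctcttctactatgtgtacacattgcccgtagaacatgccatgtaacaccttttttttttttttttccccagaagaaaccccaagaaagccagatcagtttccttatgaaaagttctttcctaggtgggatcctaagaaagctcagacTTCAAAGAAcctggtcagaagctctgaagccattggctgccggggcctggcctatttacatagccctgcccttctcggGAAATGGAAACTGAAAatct
Ifit1: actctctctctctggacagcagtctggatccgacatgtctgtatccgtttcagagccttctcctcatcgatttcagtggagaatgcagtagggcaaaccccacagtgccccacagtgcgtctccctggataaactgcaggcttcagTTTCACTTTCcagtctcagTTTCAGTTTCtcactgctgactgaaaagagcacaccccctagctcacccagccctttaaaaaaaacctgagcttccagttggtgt
Irgm1: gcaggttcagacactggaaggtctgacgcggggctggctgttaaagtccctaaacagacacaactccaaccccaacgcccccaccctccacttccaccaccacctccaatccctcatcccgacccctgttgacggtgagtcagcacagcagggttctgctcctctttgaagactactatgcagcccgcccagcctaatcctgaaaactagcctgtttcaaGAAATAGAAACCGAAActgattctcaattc
Gbp2: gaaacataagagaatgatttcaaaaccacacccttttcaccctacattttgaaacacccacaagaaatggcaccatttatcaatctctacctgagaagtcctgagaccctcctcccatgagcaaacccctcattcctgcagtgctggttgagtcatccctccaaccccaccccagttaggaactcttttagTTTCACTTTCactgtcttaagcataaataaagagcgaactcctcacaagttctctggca
Igtp: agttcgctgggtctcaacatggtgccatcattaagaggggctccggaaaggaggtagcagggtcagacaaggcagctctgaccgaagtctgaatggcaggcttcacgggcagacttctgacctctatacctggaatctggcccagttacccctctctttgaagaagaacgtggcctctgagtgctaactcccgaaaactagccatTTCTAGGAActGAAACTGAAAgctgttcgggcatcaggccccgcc
These windows lie at chr4:156200819-156201068 (minus strand) for Isg15, chr5:120907526-120907775 (minus strand) for Oas1a, chr19:34640639-34640888 (plus strand) for Ifit1, chr11:48871421-48871670 (minus strand) for Irgm1, chr3:142620413-142620662 (plus strand) for Gbp2 and chr11:58199306-58199555 (plus strand) for Igtp. Isg15 held 3 ISRE matches in one overlapping run, Oas1a and Irgm1 held 2 overlapping ones each, Ifit1 held 2 apart from each other, and Gbp2 and Igtp held 1 each. A GAS match stood in the windows of Oas1a and Igtp, without overlap with an ISRE.

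Of the 40 listed genes, 30 had an entry in the RefSeq promoter table, and 15 of these 30 genes held an ISRE match in at least 1 window, against 3.46% of the 27025 genes in the table. A GAS match was held by 8 of the 30 genes, against 8.13% of all genes in the table. Among the type II targets the ISRE was found in all 5 with an entry (Gbp2, Gbp3, Gbp5, Gbp7 and Irgm1), and among the type I targets in 4 of 7 (Ifit1, Ifit3, Oas1a and Oas3). The windows of Tap1 and Psmb9, which face away from each other on chromosome 17, overlap. Ifi27l2a, Mx1, Mx2, Oas2, Parp14, Gbp4, Usp18, Iigp1, Dhx58 and Zbp1 had no entry. A match describes the letters in the window only.

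Levels between genes are given in TPM, which the authors scaled for gene length. In control lungs the median TPM over 4 libraries was highest for Ifi27l2a (219 TPM), Bst2 (144 TPM), Psmb8 (117 TPM), Irf1 (58.1 TPM), Ifit3 (57.8 TPM), Xaf1 (48.5 TPM), Psmb9 (43.6 TPM), Gbp2 (40.9 TPM), Ifi47 (30.1 TPM) and Irgm1 (27.2 TPM). A middle range held Irf9 (22.4 TPM), Isg15 (22.4 TPM), Igtp (22.2 TPM), Oasl2 (20.1 TPM), Tap1 (19.6 TPM), Iigp1 (18.4 TPM), Gbp3 (16.8 TPM), Usp18 (15.5 TPM), Trim30a (11.6 TPM), Gbp4 (10.9 TPM), Zbp1 (10.7 TPM), Irf7 (10.7 TPM), Parp14 (10.4 TPM) and Gbp7 (10.3 TPM). Below 10 TPM lay Stat2 (9.47 TPM), Ifih1 (8.94 TPM), Oas1a (8.415 TPM), Cmpk2 (7.71 TPM), Ifit2 (7.52 TPM), Ifit1 (7.10 TPM), Gbp5 (6.725 TPM), Ifi44 (4.225 TPM), Dhx58 (3.82 TPM), Rsad2 (1.795 TPM), Oasl1 (1.765 TPM), Oas2 (1.445 TPM), Mx2 (1.14 TPM), Mx1 (0.955 TPM) and Oas3 (0.760 TPM). Of the 38 neighbouring pairs in this order, 36 overlapped over the 4 controls. The exceptions were Ifi27l2a (181 to 339 TPM) above Bst2 (116 to 173 TPM), and Psmb8 (103 to 180.3 TPM) above Irf1 (27.6 to 82.1 TPM). Ifi27l2a, Bst2 and the immunoproteasome gene Psmb8 were the most abundant members in control lungs, and the Mx and large Oas genes the scarcest.

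Between silica and control lungs, 38 of the 39 genes had a fold change above 0, with a median of 0.60 on the log2 scale, against -0.03 over all 17630 tested genes. No gene of the 39 was called by edgeR's quasi-likelihood test with Benjamini-Hochberg adjustment at 0.05, where 0.0113% of all tested genes were called (2 genes). At an unadjusted p under 0.05 stood 9 of the 39, all higher in silica, against 5.98% of all tested genes. With only the silica and control libraries in the fit, 0.249% of 16467 genes were called and again 0 of the 39, the smallest adjusted p among them being 0.0891, while over all the alternatives run it went from there to 1.00. DESeq2 and limma-trend on log2(TPM + 1) also called 0 of the 39, here and in each other comparison. The count at an unadjusted p under 0.05 rests on single libraries: it was 1 without silica 1, silica 2, control 1 or control 7, and 2 without control 2. Over all tested genes the count in these fits ran from 721 of 17421 without silica 1 to 910 of 17614 without silica 2. In bulk tissue, fewer or more cells of a type and less or more RNA per cell cannot be told apart.

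In 8 genes all 3 silica libraries lay above all 4 control libraries: the GTPase genes Irgm1, Gbp2, Igtp and Ifi47, the transporter gene Tap1, the sensor gene Zbp1, the synthetase gene Oas1a and the transcription factor gene Irf1. Such separation upward was found in 5.41% of all tested genes, and no member lay below all controls in all silica libraries. This separation of the 8 genes was seen in normalised CPM, scaled by TMM over the lung libraries. In TPM, silica 7 lay inside the control range for Irgm1, Gbp2, Igtp, Ifi47, Tap1, Zbp1 and Irf1. For Irgm1 it had 28.3 TPM, against 14.2 to 41.6 TPM in control. Silica 2, of the long class, also lay inside the control range for Gbp2, Tap1 and Irf1. For Gbp2 it had 60.6 TPM, against 14.5 to 73.8 TPM in control. Oas1a alone kept the separation, with 16.1 to 30.4 TPM in silica and 4.03 to 13.6 TPM in control. The 12 genes of smallest p were Iigp1, Rsad2, Zbp1, Gbp2, Mx1, Irgm1, Ifi47, Igtp, Tap1, Oas1a, Isg15 and Irf1, with log2 fold changes between 0.40 and 1.47 and adjusted p-values from 0.666 to 1.00.

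**Figure D1:**
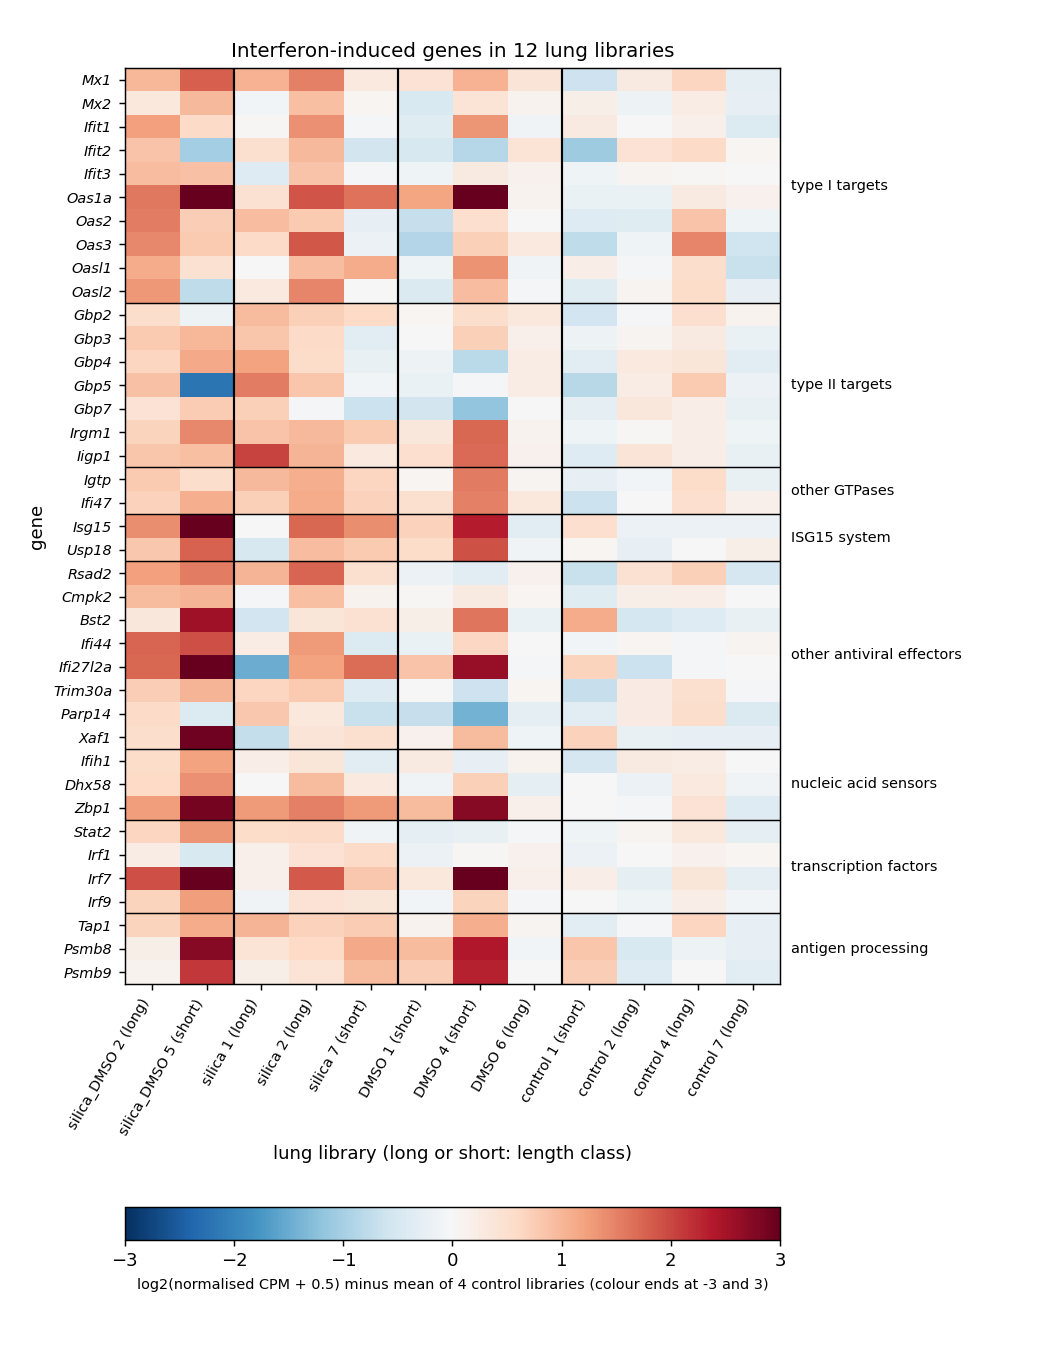
Each row is one of 39 interferon-induced genes by role and each column one of 12 lung libraries, with the colour giving log2(normalised CPM + 0.5) minus the mean of the 4 control libraries. Silica_DMSO 5 and DMSO 4 hold the darkest cells, among them Ifi27l2a and Irf7, and the GTPase rows Irgm1, Igtp and Ifi47 are above 0 in all 3 silica libraries.

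The type II targets are GTPases of families with members that coat and break the vacuoles of intracellular microbes. All 7 had a silica against control fold change above 0, with a median of 0.71 on the log2 scale. Values per library are normalised CPM, scaled by TMM over the 12 lung libraries, in the order of the library numbers within each group. Irgm1, a GTPase of the immunity-related family that controls its relatives, was 79.98 and 136 in silica_DMSO, 91.05, 97.6 and 85.55 in silica, 63.7, 164 and 53.4 in DMSO, and 45.7, 51.4, 57.35 and 45.7 in control. The 3 silica libraries lay close together and above every control. Both silica_DMSO libraries, DMSO 1 and DMSO 4 were also above every control, and DMSO 4 was the highest of all. Irgm1 averaged 91.4 ± 6.03 normalised CPM in silica (SD, n = 3) and 50.03 ± 5.57 in control (SD, n = 4), a log2 fold change of 0.87 ± 0.37 (± SE; adjusted p = 0.816 in edgeR).

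Gbp2, a guanylate-binding protein, was 125 and 77.1 in silica_DMSO, 167, 141 and 131 in silica, 90.3, 125 and 108 in DMSO, and 57.6, 83.7, 123 and 92.7 in control. Silica lay above control in 3 of 3 libraries (0.71 ± 0.30 on the log2 scale, adjusted p = 0.792 in edgeR), while silica_DMSO 5 was lower than 3 of the controls. Iigp1, which loads onto vacuole membranes, was 77.9 and 81.0 in silica_DMSO, 178, 89.2 and 53.4 in silica, 61.7, 143 and 47.7 in DMSO, and 33.4, 56.9, 50.3 and 37.3 in control. Silica 1 and DMSO 4 were far above the rest and silica 7 lay inside the control range, and silica over control was 1.26 ± 0.46 on the log2 scale, adjusted p = 0.666 in edgeR.

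In the other Gbp genes silica 1 was the highest and silica 7 the lowest of the silica libraries. Gbp5, which is also known to promote inflammasome assembly, was 32.8 and 3.455 in silica_DMSO, 52.35, 31.9 and 16.6 in silica, 15.2, 16.99 and 20.7 in DMSO, and 9.71, 20.7, 30.8 and 15.5 in control. Its silica_DMSO 5 value was the lowest of the 12 and its silica 1 value the highest. Gbp4 ran over 53.4 to 75.3 in silica_DMSO, 29.1 to 80.0 in silica, 19.3 to 39.98 in DMSO and 26.9 to 44.1 in control. Gbp3 ran over 57.05 to 66.2 in silica_DMSO, 26.1 to 58.8 in silica, 33.05 to 54.1 in DMSO and 28.4 to 39.7 in control, and Gbp7 over 65.2 to 82.3 in silica_DMSO, 30.5 to 79.9 in silica, 20.9 to 48.5 in DMSO and 39.5 to 61.1 in control. In silica 7, the short-class silica library, all 3 were at or below the middle of the controls, so the ranges of silica and control overlapped.

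Igtp and Ifi47, GTPase genes outside that grouping, separated silica from control in all 3 libraries. Igtp (also called Irgm3), a regulator of its relatives, was 70.3 and 58.25 in silica_DMSO, 79.6, 86.8 and 63.4 in silica, 42.5, 120.4 and 42.7 in DMSO, and 33.9, 38.3, 59.6 and 34.7 in control, and silica over control was 0.88 ± 0.39 on the log2 scale, adjusted p = 0.830 in edgeR. Ifi47, of the same family, was 62.75 and 82.8 in silica_DMSO, 63.8, 83.96 and 62.9 in silica, 53.7, 111 and 48.1 in DMSO, and 24.65, 38.2, 54.5 and 42.7 in control, with silica over control at 0.81 ± 0.36 on the log2 scale, adjusted p = 0.83 in edgeR. For both genes all 3 silica libraries and DMSO 4 exceeded every control, while DMSO 1 and DMSO 6 did not exceed the highest control.

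**Figure D2:**
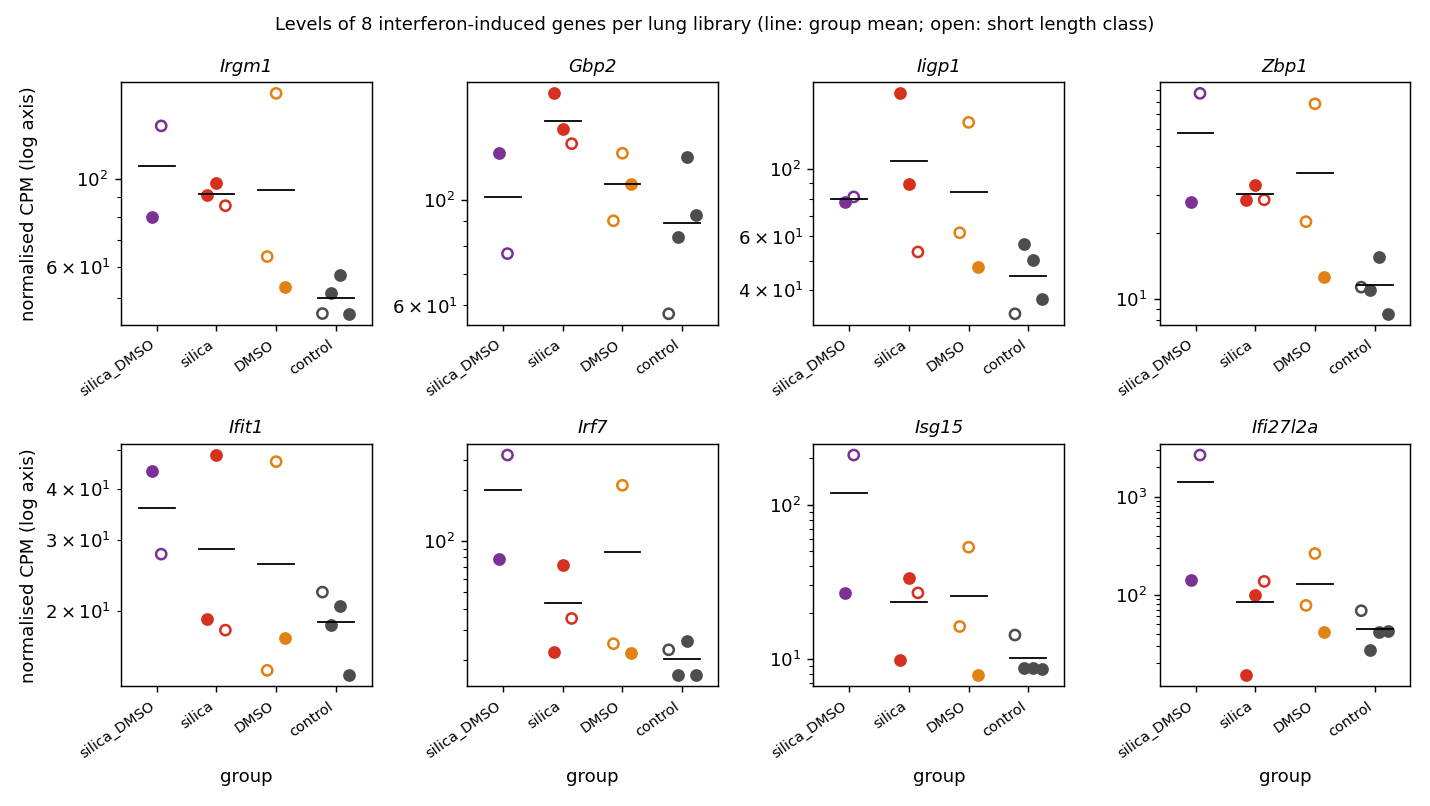
Normalised CPM of 8 genes in the 12 lung libraries on log axes, one point per library, open for the short length class, with a line at the group mean. Irgm1 is above all controls in 3 of 3 silica libraries, Ifit1 in 1 of 3, and Ifi27l2a reaches 2650 in silica_DMSO 5.

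All 10 type I targets also had a silica against control fold change above 0, with a median of 0.65 on the log2 scale, and silica 2 held the highest silica value of each except Oas2 and Oasl1. Ifit1, which binds viral RNA ends, was 44.3 and 27.6 in silica_DMSO, 19.1, 48.6 and 17.9 in silica, 14.25, 46.8 and 17.2 in DMSO, and 22.3, 18.5, 20.6 and 13.8 in control. Silica 2, silica_DMSO 2 and DMSO 4 exceeded 40 normalised CPM, and silica 1 and silica 7 lay within the controls. Ifit3, its partner, was 149.6 and 145 in silica_DMSO, 59.8, 143 and 76.1 in silica, 72.4, 95.5 and 85.5 in DMSO, and 72.4, 82.8, 80.97 and 79.4 in control. Here silica 2 and both silica_DMSO libraries were high, and the 4 controls lay between 72.4 and 82.8. Ifit2 ran over 9.405 to 36.0 in silica_DMSO, 13.3 to 39.05 in silica, 10.6 to 26.1 in DMSO and 9.09 to 29.4 in control, overlapping in every pair of groups.

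Oas1a belongs to the oligoadenylate synthetases, which make the small molecule that activates RNase L. It was 40.5 and 300.4 in silica_DMSO, 18.5, 50.4 and 42.35 in silica, 30.8, 145 and 14.4 in DMSO, and 11.5, 11.5, 16.15 and 14.5 in control. All 3 silica libraries lay above the controls, and silica_DMSO 5 and DMSO 4 stood far above all others, with 1.47 ± 0.76 on the log2 scale, adjusted p = 0.923 for silica over control in edgeR. Reads of Oas1a and its near-identical neighbours (such as Oas1g), of Ifit3 and Ifit3b, and of the Gbp cluster can be split differently by counting programs, and which one was used is unknown, so these levels are uncertain.

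Mx1, a dynamin-like GTPase whose gene is defective in many laboratory strains, was 4.91 and 8.83 in silica_DMSO, 5.03, 7.22 and 2.80 in silica, 3.16, 5.09 and 3.01 in DMSO, and 1.25, 2.78, 3.71 and 1.71 in control. Silica 1 and silica 2 lay above every control and silica 7 below the highest (1.08 ± 0.46 on the log2 scale, adjusted p = 0.812 in edgeR). Mx2 was scarce, over 3.12 to 5.18 in silica_DMSO, 2.25 to 4.91 in silica, 1.61 to 3.37 in DMSO and 1.93 to 2.89 in control. Oas2 ran over 8.64 to 15.4 in silica_DMSO, 4.155 to 9.84 in silica, 2.88 to 7.28 in DMSO and 3.69 to 9.46 in control, and Oas3 over 7.58 to 12.2 in silica_DMSO, 3.65 to 16.4 in silica, 2.05 to 7.13 in DMSO and 2.27 to 12.35 in control, with control 4 the highest control in both. Oasl1, known in mice to restrain Irf7 translation, ran over 4.61 to 7.45 in silica_DMSO, 3.25 to 7.51 in silica, 2.88 to 8.93 in DMSO and 1.84 to 4.79 in control. Oasl2 ran over 23.6 to 101 in silica_DMSO, 40.1 to 113 in silica, 29.8 to 77.8 in DMSO and 31.2 to 59.2 in control, with silica 2 and silica_DMSO 2 highest. Without silica 2 the median silica against control change was 0.04 for the type I targets and 0.38 for the 39 genes, 29 of them above 0, and Rsad2 stood at 0.69. Without silica 1 the type II median was 0.33 and Iigp1 stood at 0.68.

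**Figure D3:**
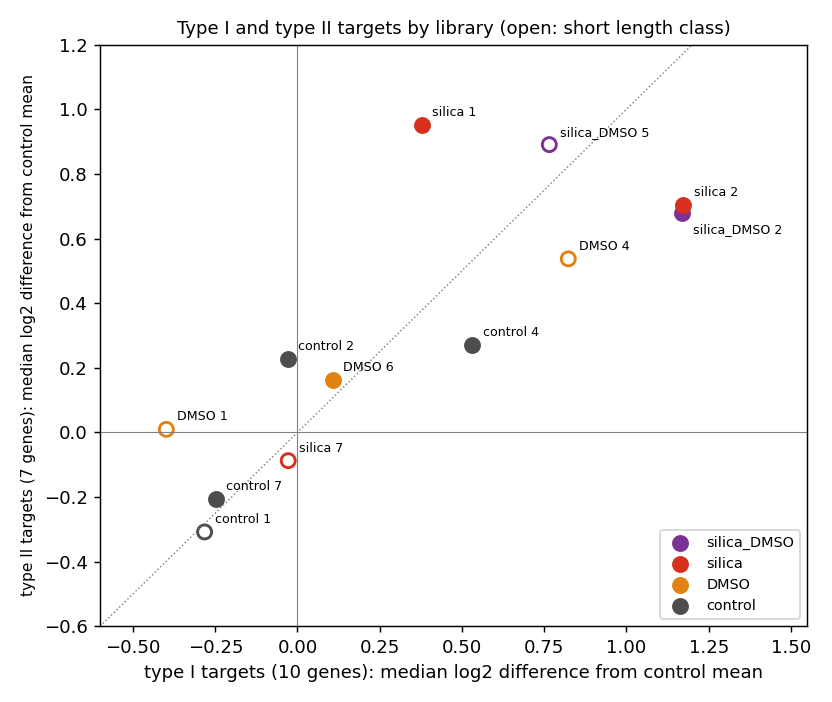
Median log2 difference from the control mean of 10 type I targets (x axis) and 7 type II targets (y axis), one point per lung library, open for the short length class, with a dotted line where both are equal. Silica 1 lies at 0.38 and 0.95, silica 2 at 1.17 and 0.70, and silica 7 at -0.03 and -0.09.

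The balance of both target sets differed among the 3 silica libraries. The median difference from the control mean was 0.38 for type I and 0.95 for type II targets in silica 1, 1.17 and 0.70 in silica 2, and -0.03 and -0.09 in silica 7. Silica_DMSO 2 (1.17 and 0.68) was close to silica 2, and silica_DMSO 5 had 0.77 and 0.89. Among DMSO libraries, DMSO 4 had 0.82 and 0.54, DMSO 6 had 0.11 and 0.16, and DMSO 1 had -0.40 and 0.01. The 4 controls ran from -0.28 to 0.53 for type I and from -0.31 to 0.27 for type II targets, so control 4 was higher in type I targets than silica 1. The pooled SD between libraries of a group was 0.50 for type I and 0.36 for type II medians. Above every control were 34 of the 39 genes in silica_DMSO 2, 29 in silica_DMSO 5, 20 in silica 1, 32 in silica 2, 17 in silica 7, 9 in DMSO 1, 27 in DMSO 4 and 1 in DMSO 6. The same held for 13.3%, 33.0%, 23.3%, 16.8%, 25.8%, 24.5%, 35.6% and 8.21% of all tested genes in those libraries, in the same order.

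Isg15 encodes a ubiquitin-like protein that is joined to other proteins, and Usp18 the enzyme that removes it and dampens the type I receptor. Isg15 was 26.9 and 209.6 in silica_DMSO, 9.79, 33.7 and 26.8 in silica, 16.25, 53.02 and 7.83 in DMSO, and 14.3, 8.74, 8.77 and 8.67 in control. Silica 2, silica 7 and both silica_DMSO libraries exceeded every control, silica 1 did not, and silica over control was 1.21 ± 0.73 on the log2 scale, adjusted p = 0.994 in edgeR. Usp18 was 39.99 and 77.35 in silica_DMSO, 16.04, 42.8 and 38.95 in silica, 32.9, 85.1 and 20.9 in DMSO, and 23.4, 18.98, 22.5 and 25.4 in control. Silica 2, silica 7, both silica_DMSO libraries, DMSO 1 and DMSO 4 were above every control for Usp18, and silica 1 was the lowest of all 12.

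Among the other antiviral effectors, Rsad2 makes an altered nucleotide that stops viral polymerases. Rsad2 was 14.2 and 17.5 in silica_DMSO, 12.1, 20.4 and 8.21 in silica, 4.99, 4.46 and 6.325 in DMSO, and 3.41, 8.10, 9.67 and 3.91 in control, and silica over control was 1.11 ± 0.42 on the log2 scale, adjusted p = 0.707 in edgeR. Silica 1, silica 2 and both silica_DMSO libraries exceeded every control. Its neighbour gene Cmpk2, a mitochondrial nucleotide kinase, ran over 39.8 to 42.2 in silica_DMSO, 19.4 to 38.85 in silica, 20.9 to 24.5 in DMSO and 15.7 to 23.6 in control. Ifi44 was 34.4 and 39.25 in silica_DMSO, 11.6, 24.7 and 7.31 in silica, 8.54, 15.4 and 9.91 in DMSO, and 9.26, 10.4, 9.46 and 10.6 in control. Both silica_DMSO libraries were above all others for Ifi44, and silica 7 was the lowest.

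Ifi27l2a, the shortest gene of the list at 463 bases and a member of the interferon alpha-inducible Ifi27 family, was 142 and 2650 in silica_DMSO, 14.99, 98.99 and 137 in silica, 77.6, 262 and 41.4 in DMSO, and 68.55, 27.3, 41.7 and 42.2 in control. Silica_DMSO 5 was the highest and silica 1 the lowest of the 12. Xaf1, linked to cell death, was 40.45 and 214 in silica_DMSO, 16.8, 36.99 and 39.3 in silica, 30.55, 54.98 and 25.5 in DMSO, and 45.8, 24.1, 23.75 and 23.7 in control, and silica_DMSO 5 alone exceeded 60. Bst2, the tetherin that holds budding virus at the membrane, was 96.7 and 443 in silica_DMSO, 50.8, 98.2 and 105 in silica, 85.2, 230.1 and 65.4 in DMSO, and 164, 52.7, 58.0 and 65.3 in control, with control 1 above all 3 silica libraries. Trim30a, a ubiquitin ligase, ran over 60.4 to 73.1 in silica_DMSO, 27.3 to 62.7 in silica, 23.3 to 37.8 in DMSO and 22.03 to 50.5 in control, and Parp14, an ADP-ribosyltransferase, over 55.6 to 112 in silica_DMSO, 46.45 to 130.1 in silica, 27.3 to 61.4 in DMSO and 54.9 to 107 in control.

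The nucleic acid sensors detect foreign RNA or DNA. Zbp1, which binds Z-form nucleic acid and can trigger necroptosis, was 27.8 and 87.2 in silica_DMSO, 28.6, 33.3 and 28.5 in silica, 22.6, 78.2 and 12.65 in DMSO, and 11.4, 11.1, 15.7 and 8.58 in control. All 3 silica libraries lay within 28.5 to 33.3 normalised CPM, each above every control, with 1.37 ± 0.56 on the log2 scale, adjusted p = 0.766 for silica over control in edgeR. Both silica_DMSO libraries, DMSO 1 and DMSO 4 also exceeded every control. Ifih1, the sensor MDA5, ran over 54.8 to 86.8 in silica_DMSO, 29.5 to 48.1 in silica, 31.2 to 45.03 in DMSO and 26.3 to 44.75 in control, and Dhx58, the related LGP2, over 11.2 to 19.4 in silica_DMSO, 7.19 to 14.4 in silica, 5.88 to 12.2 in DMSO and 6.28 to 8.98 in control. For these RNA sensors the ranges of silica and control overlapped.

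Irf7, the transcription factor that amplifies type I interferon production, was 77.98 and 319 in silica_DMSO, 22.2, 72.1 and 35.04 in silica, 24.9, 212 and 22.03 in DMSO, and 22.9, 16.2, 25.9 and 16.3 in control. Silica 2, silica 7, both silica_DMSO libraries and DMSO 4 exceeded every control. Stat2 was 53.2 and 85.4 in silica_DMSO, 50.2, 50.7 and 31.4 in silica, 27.7, 28.9 and 32.4 in DMSO, and 31.2, 35.97, 42.2 and 28.3 in control, and Irf9, its partner, ran over 81.9 to 124 in silica_DMSO, 48.3 to 69.8 in silica, 48.4 to 82.1 in DMSO and 47.4 to 59.3 in control. Irf1, the early factor of the type II response, was 116 and 73.2 in silica_DMSO, 111, 136 and 149 in silica, 88.8, 103 and 109 in DMSO, and 87.85, 99.4, 110.2 and 104 in control. Silica exceeded control in 3 of 3 libraries for Irf1 (0.40 ± 0.25 on the log2 scale, adjusted p = 1.00 in edgeR), and silica_DMSO 5 was the lowest of the 12.

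Antigen processing genes supply peptides to MHC class I. Tap1, a subunit of the peptide transporter, was 79.4 and 108 in silica_DMSO, 101, 80.1 and 84.4 in silica, 53.2, 107 and 52.4 in DMSO, and 39.3, 47.4, 78.3 and 41.9 in control. All 3 silica libraries exceeded every control, with 0.77 ± 0.34 on the log2 scale, adjusted p = 0.831 for silica over control in edgeR. Psmb8, an immunoproteasome subunit, was 117 and 692 in silica_DMSO, 138, 158 and 231 in silica, 201, 553 and 97.8 in DMSO, and 187, 75.4, 94.1 and 87.7 in control, and Psmb9, another, ran over 46.98 to 193 in silica_DMSO, 49.4 to 85.9 in silica, 43.65 to 221 in DMSO and 33.5 to 74.05 in control. The short-class libraries silica_DMSO 5, DMSO 4 and silica 7 held the highest values of both, and control 1, also short-class, exceeded silica 1 and silica 2.

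DMSO against control gave 28 of the 39 genes above 0 with a median of 0.27 on the log2 scale (all tested genes -0.04), but on log2(TPM + 1) only 9 were above 0, a scale on which the median of all genes moved to -0.53. No member was called in edgeR, against 0.0% of all tested genes, and 5 stood at an unadjusted p under 0.05, against 8.62% of all genes. With their log2 fold change ± SE these were Zbp1 (1.69 ± 0.56, adjusted p = 0.513), Oas1a (2.24 ± 0.78, adjusted p = 0.513), Irf7 (2.09 ± 0.78, adjusted p = 0.513), Irgm1 (0.91 ± 0.37, adjusted p = 0.513) and Ifi47 (0.83 ± 0.36, adjusted p = 0.513). No member had all DMSO libraries above all controls, against 3.71% of all genes. The values rest on DMSO 4: without it the median was 0.01, 20 of the 39 were above 0 and none stood at an unadjusted p under 0.05, and the fold changes were 0.60 for Zbp1, 0.76 for Oas1a, 0.22 for Irf7, 0.23 for Irgm1 and 0.35 for Ifi47. Over all tested genes 179 of 17524 did so without DMSO 4. The members' count was 2 without control 2 or control 7, against 1092 of 17568 and 1253 of 17598 tested genes. It was 8 without DMSO 1, against 1022 of 17578, and 11 without DMSO 6, against 4020 of 17598. Irgm1 in DMSO 4 illustrates the scaling, with 164 normalised CPM, above every control, but 25.7 TPM, inside the control range of 14.2 to 41.6 TPM. The TMM factor was 0.653 in DMSO 4 and 0.506 in silica_DMSO 5, against 0.929 to 1.29 in the other 10 lung libraries.

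Silica_DMSO against silica asks what DMSO after silica did. Of the 39, 31 were above 0 with a median of 0.46 on the log2 scale (all tested genes -0.02), and on log2(TPM + 1) 8 were, with the median of all genes at -0.55 there and that of the 39 at -0.26. No member was called in edgeR, against 0.0% of all tested genes, and 9 stood at an unadjusted p under 0.05, all higher, against 1.94% of all genes. That count was 3 without silica 1 and 4 without silica 7, against 128 of 17421 and 731 of 17546 tested genes. The median of the 39 went from 0.23 without silica 7 to 0.80 without silica 2. With their log2 fold change ± SE, the 5 of smallest p were Ifi27l2a (4.06 ± 1.17, adjusted p = 0.997), Xaf1 (2.03 ± 0.64, adjusted p = 0.997), Ifi44 (1.34 ± 0.45, adjusted p = 0.997), Isg15 (2.33 ± 0.87, adjusted p = 0.997) and Oas1a (2.20 ± 0.91, adjusted p = 0.997). Without silica_DMSO 5 these were 0.79 for Ifi27l2a, 0.39 for Xaf1, 1.25 for Ifi44, 0.21 for Isg15 and 0.14 for Oas1a, and the median of the 39 was 0.27.

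Both silica_DMSO libraries lay above all 3 silica libraries for 9 members, against 2.78% of all tested genes: Ifit3, Ifi44, Stat2, Irf7, Irf9, Cmpk2, Ifi27l2a, Ifih1 and Xaf1. The opposite held for 1 member, Gbp2, against 3.83% of all genes. These orders were seen in normalised CPM. In TPM, only Ifi27l2a and Xaf1 kept the upward separation. Silica_DMSO 5 lay below all 3 silica libraries for Ifit3 (21.7 TPM against 31.6 to 94.6 TPM), Stat2, Irf9 and Cmpk2. For Ifi44, Irf7 and Ifih1 it lay within the silica range. Gbp2 did not keep the opposite order, with 64.9 TPM in silica_DMSO 2 and 35.8 TPM in silica 7. Of the 9, Stat2 and Irf9 encode parts of the complex that type I interferons activate, and Irf7 the factor that amplifies their production. Type II targets had a median of 0.24 in this comparison, with 4 of 7 above 0, and type I targets 0.35 with 8 of 10, and both medians were below 0 on log2(TPM + 1), at -0.66 and -0.33. The type II median was -0.04 without silica_DMSO 5, -0.02 without silica 7 and 0.49 without silica_DMSO 2, and the type I median 0.05 without silica_DMSO 2, 0.14 without silica 1, 0.19 without silica 7 and 0.80 without silica 2.

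**Figure D4:**
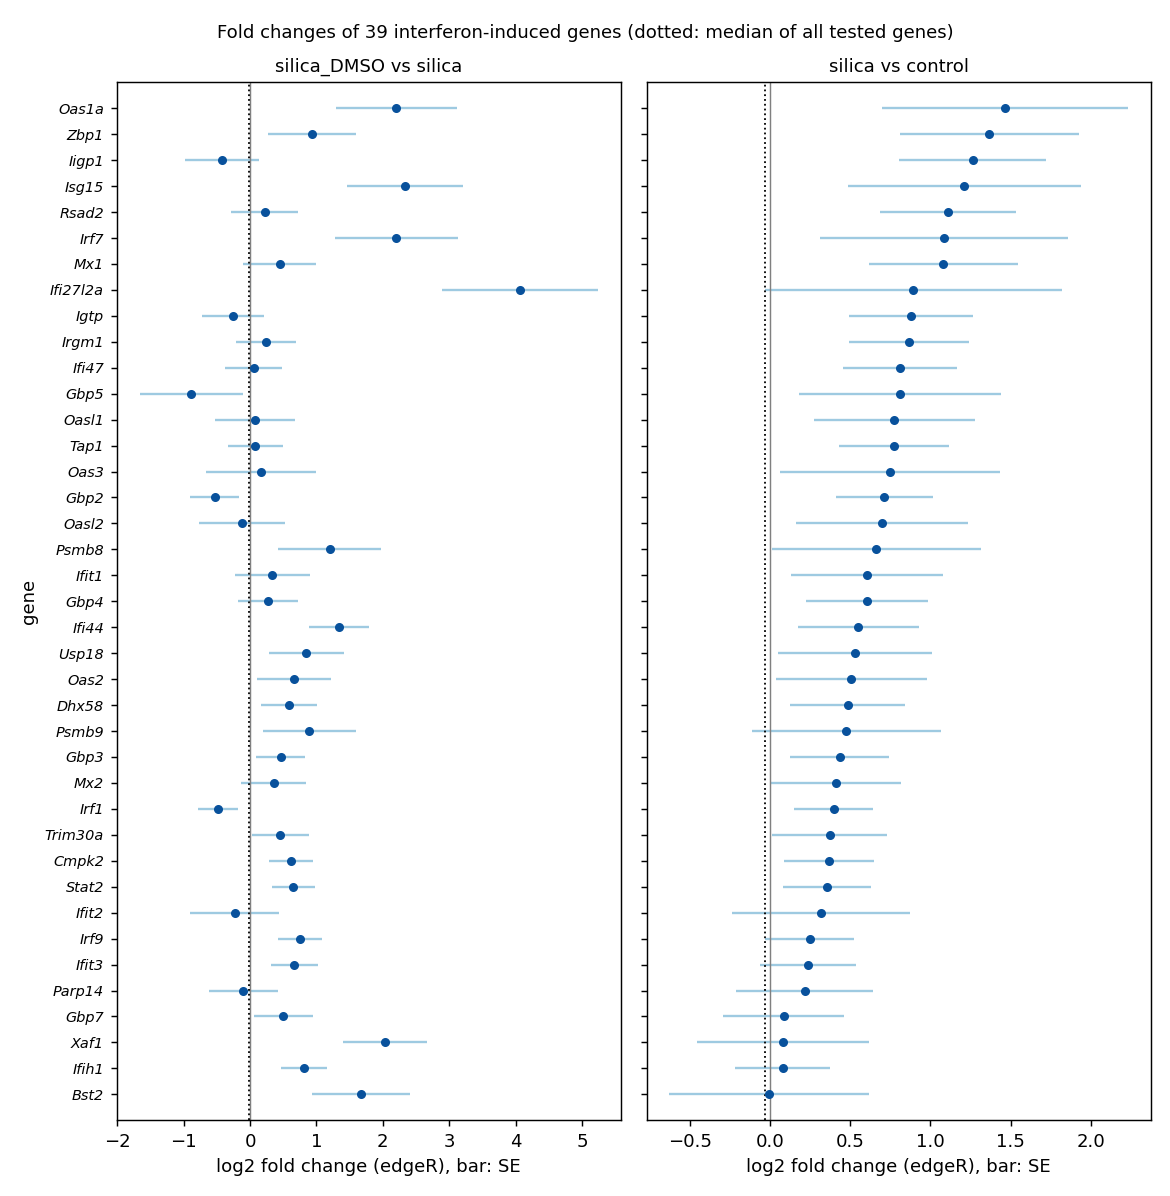
Log2 fold changes of 39 interferon-induced genes with their SE from edgeR, for silica_DMSO over silica (left) and silica over control (right), ordered by silica over control, with a dotted line at the median of all tested genes. In silica over control 38 points lie above 0, and in silica_DMSO over silica the point of Ifi27l2a stands at 4.06.

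Silica_DMSO against DMSO gave 35 of 39 above 0 with a median of 0.80 on the log2 scale, against 0.05 for all tested genes. No member was called in edgeR, against 0.0% of all tested genes, and 14 stood at an unadjusted p under 0.05, all higher, against 1.9% of all genes. The 14 dropped to 6 without DMSO 1 and 7 without DMSO 6, against 212 of 17578 and 793 of 17598 tested genes. Without silica_DMSO 5 the median was 0.46 with 29 of 39 above 0. With their log2 fold change ± SE, the 5 of smallest p were Ifi44 (1.71 ± 0.45, adjusted p = 1.00), Stat2 (1.22 ± 0.32, adjusted p = 1.00), Rsad2 (1.59 ± 0.51, adjusted p = 1.00), Ifi27l2a (3.46 ± 1.15, adjusted p = 1.00) and Xaf1 (1.78 ± 0.64, adjusted p = 1.00). Without silica_DMSO 5 these were 1.62 for Ifi44, 0.86 for Stat2, 1.45 for Rsad2, 0.17 for Ifi27l2a and 0.14 for Xaf1. Both silica_DMSO libraries lay above all 3 DMSO libraries in normalised CPM for 12 members, against 4.73% of all genes: Ifit3, Ifi44, Rsad2, Stat2, Oas2, Oas3, Cmpk2, Gbp3, Gbp4, Gbp7, Ifih1 and Trim30a. In TPM none of these kept that order, as silica_DMSO 5 lay below DMSO 6 in each (Ifit3 at 21.7 and 59.4 TPM). The type II median was 0.20, and it was 0.85 without DMSO 4, -0.01 without DMSO 1, 0.48 without silica_DMSO 5 and 0.52 without silica_DMSO 2, so its size and sign hang on single libraries.

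The interaction of silica and DMSO, the test of whether DMSO differed in effect with and without silica, had 22 of 39 above 0 and a median of 0.14 on the log2 scale (0.07 for all genes). No member was called in edgeR, against 0.0% of all genes, and 0 stood at an unadjusted p under 0.05, against 2.75% of all genes. The median of the 39 hung on single libraries: it was 0.56 with 32 above 0 and 4 at an unadjusted p under 0.05 without DMSO 4, 0.49 without silica 2, -0.05 without silica_DMSO 5, -0.02 without DMSO 1 and -0.02 without control 4. The 4 without DMSO 4 were all higher, against 249 of 17524 tested genes. With the length class as a term 6 stood at an unadjusted p under 0.05, only 4 of them higher, against 868 of 17630 tested genes. With their log2 fold change ± SE, the 5 of smallest p were Xaf1 (1.70 ± 0.84, adjusted p = 1.00), Stat2 (0.87 ± 0.43, adjusted p = 1.00), Ifi44 (1.16 ± 0.59, adjusted p = 1.00), Iigp1 (-1.34 ± 0.72, adjusted p = 1.00) and Gbp7 (1.03 ± 0.59, adjusted p = 1.00). Without silica_DMSO 5 Xaf1 was 0.04 and Stat2 0.47, without silica 2 Ifi44 was 1.77, and Iigp1 was -0.74 without DMSO 4 and -0.76 without silica 1. Type II targets had a median of -0.67, which was 0.01 without DMSO 4, 0.01 without silica_DMSO 5 and -0.28 without silica 1. Type I targets had a median of 0.04, which was -0.03 with an offset for gene length and 0.58 without DMSO 4.

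Within the length classes the silica against control difference stood in both. Among long-class libraries (2 silica and 3 control) the median of the 39 was 0.66 with 39 of 39 above 0, and between the single short-class silica and control libraries it was 0.47 with 31 of 39. DMSO against control had a median of 0.01 in the long class (1 DMSO and 3 control) and 0.51 in the short class (2 DMSO and 1 control). Silica_DMSO against silica had 0.10 in the long class (1 and 2 libraries) and 0.98 in the short class (1 and 1). Silica_DMSO against DMSO had 0.70 in the long class (1 and 1) and 0.88 in the short class (1 and 2). A class with 1 library in a group gives a value without replicates.

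The interferon genes themselves had few counts. Of 21 listed interferon genes, 13 were at 0 counts in all 15 libraries, and Ifng alone passed the filter. Ifng had raw counts of 37 and 13 in silica_DMSO, 36, 26 and 30 in silica, 16, 30 and 28 in DMSO, and 9, 9, 30 and 12 in control. In normalised CPM all 3 silica libraries exceeded every control (1.303 to 1.56 against 0.410 to 1.296), with a log2 fold change of 1.07 ± 0.51 (adjusted p = 0.855 in edgeR). Ifnb1 had 1 count each in silica_DMSO 2, silica_DMSO 5 and silica 7, Ifna12 3 counts in silica 2, and Ifnz at most 3 counts in any lung library. Type I interferon RNA below such counts was not detectable at this depth.

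Other genes of the pathway were mostly higher in silica, and none was called in edgeR. Over all tested genes 47.02% were above 0 in silica over control and, as given for the members, 5.98% stood at an unadjusted p under 0.05. Of 16 receptor and signalling genes 12 were above 0 in silica over control and 5 stood at an unadjusted p under 0.05, all higher, with 0 called in edgeR. The 2 of smallest p were Socs3, a feedback inhibitor of cytokine signalling, and Ptpn6, a phosphatase of blood cells, with log2 fold changes of 0.92 ± 0.33 (adjusted p = 0.666) and 0.90 ± 0.31 (adjusted p = 0.630). Of 11 measured genes of the sensor pathways upstream of interferon 10 were above 0, 4 at an unadjusted p under 0.05. Sting1, the adaptor of the DNA sensor cGAS, was 48.6, 28.6 and 36.3 normalised CPM in silica and 12.04, 17.8, 21.7 and 19.7 in control (1.09 ± 0.33, adjusted p = 0.525), with every silica library above every control. Ifi204, a DNA sensor of the same pathway, had a log2 fold change of 1.08 ± 0.42 (adjusted p = 0.713).

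A wider list of 47 other interferon-induced genes, 45 of them tested, had 35 above 0 with a median of 0.46 in silica over control, 7 at an unadjusted p under 0.05, all higher, and 0 called. Gbp6 was 94.1, 49.5 and 23.3 normalised CPM in silica and 13.8, 20.5, 28.1 and 15.01 in control (1.52 ± 0.46, adjusted p = 0.521 in edgeR). Tgtp1, a GTPase of the Irgm1 family, was 98.1, 75.9 and 161 in silica and 6.47, 23.9, 28.5 and 23.1 in control (2.45 ± 0.84, adjusted p = 0.623). Tgtp1 lay above every control in 3 of 3 silica libraries and Gbp6 in 2 of 3. Of 15 genes of MHC class I presentation 12 were above 0, with B2m at 0.62 ± 0.48 and H2-D1 at 0.49 ± 0.40 (both adjusted p = 1.00 in edgeR). The interferon-induced chemokine genes Cxcl10 (28.9, 25.9 and 26.7 normalised CPM in silica and 1.36, 2.46, 4.75 and 2.74 in control) and Cxcl9 (83.6, 22.8 and 49.5 in silica and 2.61, 3.55, 2.25 and 2.29 in control) had log2 fold changes of 3.26 ± 0.51 and 4.28 ± 0.90, with adjusted p-values of 0.0880 and 0.213 in edgeR, and 2 of the 3 such chemokine genes listed were tested.

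Summed levels of cell type markers were set beside these values. All 10 macrophage and monocyte markers had a silica over control fold change above 0, and their summed level was 856 to 1013 CPM in silica_DMSO, 875 to 1447 CPM in silica, 425 to 955 CPM in DMSO and 405 to 573 CPM in control. Cd68 (2.39 ± 0.43, adjusted p = 0.132) and Marco (2.02 ± 0.50, adjusted p = 0.348) had the smallest p of that list in edgeR. The 12 T and NK cell markers summed to 258 to 293 CPM in silica_DMSO, 168 to 230 CPM in silica, 228 to 316 CPM in DMSO and 188 to 279 CPM in control, with 4 of 12 above 0 in silica over control. The 6 markers of plasmacytoid dendritic cells, a main source of type I interferon, summed to 24.9 to 42.1 CPM in silica_DMSO, 18.4 to 40.4 CPM in silica, 24.0 to 59.2 CPM in DMSO and 24.6 to 43.8 CPM in control, with 3 of 6 above 0. The 4 club cell markers, of secretory cells of the airways, summed to 45730 and 149000 CPM in silica_DMSO 2 and 5, 10360 to 132300 CPM in silica, 56790 to 139900 CPM in DMSO and 36910 to 128600 CPM in control. Their highest sums were in the short-class libraries silica_DMSO 5, DMSO 4, silica 7 and control 1, and the lowest was in silica 1. Their median log2 fold change was 1.74 in silica_DMSO over silica, 1.45 in DMSO over control and 0.30 in silica over control. In silica_DMSO over silica, 7 of 10 macrophage and monocyte markers (median 0.44) and 10 of 12 T and NK cell markers (median 0.69) were above 0, and in DMSO over control 8 of 10 (median 0.96) and 9 of 12 (median 0.36). All 7 endothelial and all 6 alveolar type 1 markers were below 0 in silica over control. No marker of these lists was at 0 in the lung libraries, and the part of cell numbers in the levels of the 39 genes was not tested.

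In the 3 libraries with thymus RNA the interferon-induced genes lay mostly within the lung range. On a scale over all 15 libraries, no member lay above all 12 lung libraries in all 3, against 15.5% of the 17630 tested genes, and Cmpk2 and Gbp3 lay below all 12, against 16.2%. Gbp3 had 17.1, 14.7 and 21.8 normalised CPM in silica_DMSO 4, silica_DMSO 6 and DMSO 7, against 27.1 to 70.1 in the lung libraries. Above every control in all 3 were 11 members: Mx1, Ifit1, Ifi44, Stat2, Irf7, Zbp1, Gbp4, Igtp, Psmb8, Trim30a and Ifi47. That is 11 of 39, where 23.4% of all tested genes lay above every control in all 3. Gbp4 in DMSO 7 reached 152 normalised CPM, against 20.4 to 86.6 in the lung libraries. Oas3 (34.9, 19.7 and 9.73), Oasl1 (18.1, 14.1 and 4.63), Ifi47 (143, 128 and 74.75) and Tap1 (146, 120.0 and 77.3) were above all lung libraries in both silica_DMSO libraries but not in DMSO 7, as were 2.43% of all tested genes. These levels belong to another tissue mixture, and tissue and treatment cannot be told apart in them.

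**Figure D5:**
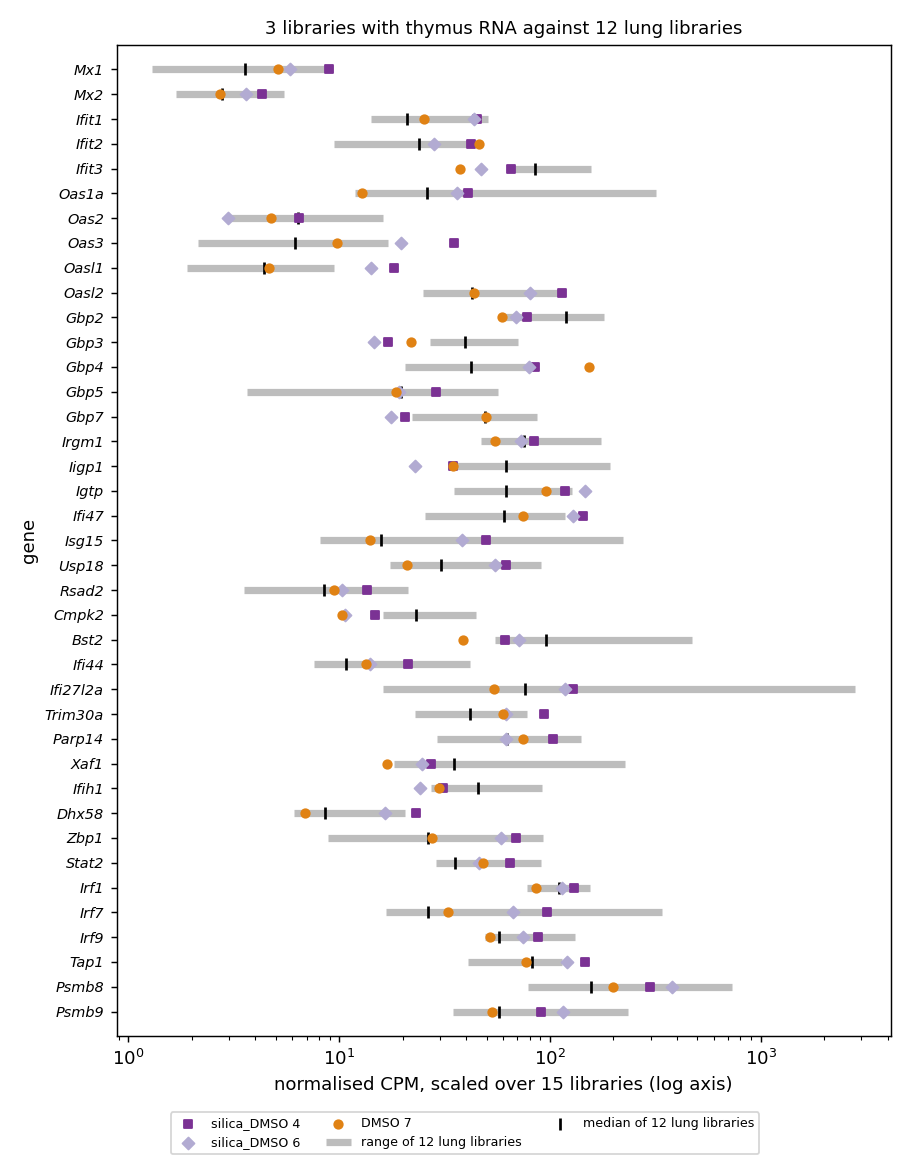
Normalised CPM of 39 interferon-induced genes on a log axis, with symbols for the 3 libraries with thymus RNA and a grey bar with a tick for the range and median of the 12 lung libraries. Cmpk2 and Gbp3 lie left of the bar in all 3, and Gbp4 in DMSO 7 lies right of it at 152.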

How the data were processed

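RNA of mouse lung tissue was measured by RNA sequencing in 15 libraries, grouped by their labels. One deposited table gives expected counts, estimates per gene that need not be whole, and the other gives TPM as the authors computed them. Both also hold gene length in bases, another value given by the authors, and 8 columns of group means, which were not used here. Per the submitters' processing notes, Bowtie 0.12.2 and build mm8 were used. The way the counts were estimated was not given in the sources used here. Of the gene identifiers, 52029 (91.3%) were found in GENCODE M21.

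Rounding the expected counts moved no library total by more than 53.9. Library totals lay between 17434653 and 20829923 counts (depth limits the scarcest genes, such as Mx2 and Oas3). Genes were filtered by group with edgeR's filterByExpr (smallest count 10, smallest total 15), which left 17630 genes over the 12 lung libraries. Libraries were scaled by TMM, and edgeR's quasi-likelihood F test (robust) was run on 4 group means with contrasts for each comparison and the interaction. P-values were adjusted with the Benjamini-Hochberg method over all tested genes and called at 0.05. The standard error of a log2 fold change was computed from the fold change and its F value. R 4.3.3, edgeR 4.0.16, limma 3.58.1, DESeq2 1.42.0, Python 3.11.15 and matplotlib 3.10.9 were used, and the fit was tested on simulated data.

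Alternatives were all 15 libraries, only the groups compared, DESeq2's size factors, DESeq2, limma-trend on log2(TPM + 1), no filter, an offset for gene length, a replicate block and leaving out each library. The length class as a term was added after the data were seen. So were the alternatives of the type I and type II medians, except all 15 libraries, log2(TPM + 1) and the offset for gene length. The genes and lists were chosen with earlier results of these data known. Fold changes with their error were given for the 12 genes of smallest p in silica against control and the 5 of smallest p in each other comparison, and for 2 genes per further list. Promoter windows came from RefSeq. Not all comparisons of the series were analysed here.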

Additional observations from a re-analysis of the deposited data

Results flagged for a closer look

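Groups of 4 libraries were examined, with the libraries of thymus RNA included. A library stood far from its 3 companions in 22 of the 117 gene and group combinations. Over all 17630 tested genes the same was found in 14.1% of the combinations, so the members' count is read against that share. Values are normalised CPM, scaled over all 15 libraries for the silica_DMSO and DMSO groups and over the 12 lung libraries for the control group.

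Silica_DMSO 5 was the highest of its group for Ifi27l2a (2806), Bst2 (469), Irf7 (338), Oas1a (318), Xaf1 (227), Isg15 (222) and Irgm1 (144), and the lowest for Ifit1 (29.3). DMSO 4 was the highest of its group for Ifi27l2a (278), Psmb9 (235), Irf7 (225), Irgm1 (174), Oas1a (154), Irf9 (87.0) and Dhx58 (12.9). Both are the libraries with the fewest counts in genes over 3000 bases, 11.5% and 12.4%, and the part of that in these levels was not tested. DMSO 7, a library with thymus RNA, was the highest of its group for Gbp4 (152). Control 1, the short-class control, was the highest of its group for Psmb8 (187), Bst2 (164), Xaf1 (45.8) and Isg15 (14.3), and control 4 for Oas3 (12.35) and Oas2 (9.46).

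Of the fits, only the alternative with all 15 libraries used the 3 libraries with thymus RNA. In all 3 of them 11 of the 39 genes exceeded every control library, as did 23.4% of all tested genes. The lowest of the 3 was 199.8 normalised CPM for Psmb8, 95.7 for Igtp, 79.1 for Gbp4, 74.75 for Ifi47, 60.1 for Trim30a, 46.0 for Stat2, 32.7 for Irf7, 27.6 for Zbp1, 25.2 for Ifit1, 13.4 for Ifi44 and 5.10 for Mx1. Tissue and treatment cannot be told apart there.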

How the results depend on the processing

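No member was called in any of the 104 combinations of comparison and alternative. Of the recomputed fold changes 661 kept their direction and 6 did not. These cover only the genes of smallest p, 12 for silica against control and 5 for each other comparison. Over all 39 genes directions moved more. On log2(TPM + 1) the number above 0 went from 28 to 9 in DMSO against control and from 31 to 8 in silica_DMSO against silica. Counts of all tested genes called in silica against control, DMSO against control, silica_DMSO against silica, silica_DMSO against DMSO and the interaction were 2, 0, 0, 0 and 0 in the fit as reported, 150, 60, 0, 10 and 1 with DESeq2, and 15, 0, 0, 1 and 0 with the length class as a term. On log2(TPM + 1) the DMSO against control fold change was -0.064 for Irgm1 and -0.0042 for Ifi47, and the medians of type I and type II targets were -0.40 and -0.45 for DMSO against control and -0.33 and -0.66 for silica_DMSO against silica, where the median of all genes was -0.53 and -0.55. With all 15 libraries the type II median of silica_DMSO against silica was -0.23. Without a silica_DMSO library the group holds 1, assumed to vary like the other groups. Leaving out 1 library, the type I median ran from 0.041 to 0.92 in silica against control and from -0.21 to 0.58 in the interaction, and the type II median from 0.33 to 0.91 in silica against control, from -0.0099 to 0.85 in silica_DMSO against DMSO and from -0.89 to 0.012 in the interaction. The cause of these shifts was not tested.

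No pairing by the numbers in the labels was seen. Over 8 same-numbered pairs the correlation of deviations from the group means ran from -0.457 to 0.386, and no library correlated best with one of its own number. This cannot exclude pairing, because the deviations also hold differences of length class. The short-class libraries control 1, DMSO 4 and silica 7 correlated best with silica_DMSO 5 of that class, while DMSO 1 correlated best with control 2. With the number as a replicate block, silica_DMSO 5 and DMSO 6 add nothing to the contrasts, being the only lung libraries of their numbers. Silica_DMSO 2 then stands alone for its group. The medians of the 39 were 0.02 (20 above 0) in silica_DMSO against silica and 0.30 (27 above 0) in silica_DMSO against DMSO. In the interaction the median was -0.18 (14 above 0). Under the block silica_DMSO against silica was -0.053 for Oas1a, silica_DMSO against DMSO was -0.061 for Ifi27l2a and -0.083 for Xaf1, and the interaction was -0.14 for Xaf1. The type II median under the block was -0.13 for silica_DMSO against silica, 0.57 for silica_DMSO against DMSO and 0.054 for the interaction.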

Other observations

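The RNA sensor gene listed as Ddx58 and named Rigi in the table, which encodes RIG-I, had 61.2 and 23.9 normalised CPM in silica_DMSO, 62.6, 59.0 and 28.9 in silica, 30.0, 17.46 and 47.1 in DMSO, and 31.7, 45.5, 63.0 and 43.0 in control. The groups overlapped, and every short-class library lay below every long-class library. Silica_DMSO 4, silica_DMSO 6 and DMSO 7 had 75.15, 49.0 and 46.0 on the scale over 15 libraries.

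Counts of type III interferon genes appeared only in libraries with thymus RNA among the 15. Ifnl2 had 3 counts in silica_DMSO 4 and 1 in silica_DMSO 6, and Ifnl3 had 2 in silica_DMSO 4, and both were at 0 in the 12 lung libraries. Ifna4 had 1 count in silica_DMSO 4 and Ifnab 1 in DMSO 7.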
